A study of Mus with 18 samples.

Results

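The 9 genes described here are targets of the tumour suppressor p53 and growth arrest genes: Cdkn1a (ENSMUSG00000023067), Mdm2 (ENSMUSG00000020184), Ccng1 (ENSMUSG00000020326), Btg2 (ENSMUSG00000020423), Gdf15 (ENSMUSG00000038508), Bbc3 (ENSMUSG00000002083), Gadd45a (ENSMUSG00000036390), Gadd45b (ENSMUSG00000015312) and Gadd45g (ENSMUSG00000021453). They were chosen by gene ID, and all 9 were found among the 55416 gene IDs of the count tables and passed the filter on low counts in every comparison. RNA was sequenced from mouse lens epithelial cells (LECs) on the lens capsule in 18 libraries, with 3 libraries in each of 6 groups. The groups were wild type (WT), Egr1KO and FosBcKO, each at 0 h and at 6 h after surgery that takes out the lens fiber cells and leaves the capsule with its LECs in the eye. Hours PCS are hours post cataract surgery, which this operation models.

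Egr1KO mice were homozygous for a systemic Egr1 allele in which a neo cassette interrupts exon 2, and FosBcKO mice carried Fosb alleles with floxed exons 2 and 3 and the MLR10 cre transgene, which a modified alpha A crystallin promoter drives in the lens. Egr1 and Fosb both encode immediate early transcription factors. All mice were 3 to 5 months old and of both sexes. The labels give C57BL/6 as the strain of every group, while the study obtained the Egr1KO line from a stock of mixed strain background. Each library pooled 5 capsules, and by the design text the 0 h capsule came from the second eye of a mouse whose first eye had been operated on 6 h earlier, so the 0 h groups were not free of surgery elsewhere in the animal. The labels do not tell which replicates at 0 h and 6 h came from the same mice.

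p53 is a transcription factor that is stabilised by DNA damage and other stresses. Its targets halt the cell cycle, repair DNA, start apoptosis or, in the case of Mdm2, mark p53 itself for degradation, which closes a feedback loop. Several of these genes are also induced without p53 by growth factor, stress kinase or cytokine signals as immediate early genes, among them Btg2 and the Gadd45 genes. The cells at the centre of the adult lens epithelium seldom divide.

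Counted read pairs ranged from 9609295 to 13871592 per library, and libraries of a group differed by more than counting noise in every group. Values below are counts per 1000000 counted pairs (CPM), and overlap between groups refers to these values before scaling by the trimmed mean of M values (TMM) unless said otherwise. CPM is not divided by gene length, so a gene was compared with itself across groups and the genes were not ranked against each other. A call required a false discovery rate (FDR) of at most 0.05 over all genes tested and a change of more than 2-fold. Log2 fold changes are given with their standard error (SE). The deposited counts are of whole genes, so reads from the interrupted or deleted exons could not be separated, and Egr1 and Fosb counts do not check the genotype labels. Egr1 stood at 106.5 to 285 CPM in Egr1KO and 66.3 to 165 CPM in WT at 0 h, and at 2083 to 4463 CPM in Egr1KO and 1438 to 2046 CPM in WT at 6 h. Fosb stood at 4.55 to 18.1 CPM in FosBcKO and 7.20 to 26.3 CPM in WT at 0 h, and at 1430 to 1778 CPM in FosBcKO and 767 to 1539 CPM in WT at 6 h. Egr1KO and FosBcKO therefore name the libraries so labelled. The study itself reports loss of Egr1 protein in Egr1KO mice by immunofluorescence. For FosBcKO it reports deletion of the floxed exons by PCR of lens DNA and loss of FosB protein by immunofluorescence.

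Of the genes listed as lens epithelium markers, 3 of 6 could be matched to an ID (Pax6, Foxe3 and Prox1). Their summed level was 1620 to 1900 CPM at 0 h and 511 to 1480 CPM at 6 h. Prox1 was the largest part of the 0 h sum, and its WT mean went from 996 to 374 CPM. The WT mean of Pax6 went from 580 to 303.5 CPM and that of Foxe3 from 177 to 141 CPM. Over the same libraries the 6 of 8 leukocyte markers matched summed to 1.42 to 29.1 CPM at 0 h and 16.0 to 46.6 CPM at 6 h. The 3 of 4 pigment cell markers matched summed to 10.5 to 76.4 CPM at 0 h and 27.9 to 291 CPM at 6 h. Higher levels at 6 h were also seen for both endothelial markers, at 0 to 1.55 CPM and 1.98 to 15.8 CPM, and for both red blood cell markers, at 0.864 to 57.1 CPM and 57.5 to 252 CPM. The 2 corneal keratins spanned 0.518 to 28.9 CPM at 0 h and 0.518 to 299 CPM at 6 h. No marker matched was at 0 in all libraries of a group, and markers of fiber cells and photoreceptors could not be matched. The part of these markers in the results below was not tested. In such bulk samples, fewer cells of a type and less RNA per cell cannot be told apart.

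The response of these genes to lens injury was read from the contrast of 6 h PCS with 0 h within each genotype. Cdkn1a, Btg2 and the 3 Gadd45 genes were higher at 6 h and Ccng1 was lower in WT, Egr1KO and FosBcKO alike, and each of these changes passed the call. In WT, 5 of the 9 genes were called higher, against 13.5% of all 15440 genes tested, and 1 of 9 lower, against 3.65%. In Egr1KO, 5 of 9 were called higher, against 9.28% of 14586 genes, and 1 lower, against 2.69%. In FosBcKO, 5 of 9 were called higher, against 11.2% of 15475 genes, and 1 lower, against 1.9%. The median log2 fold change of the 9 genes was 1.58 in WT, 1.86 in Egr1KO and 1.98 in FosBcKO, and that of all genes tested was between -0.02 and 0.05. Mdm2, Gdf15 and Bbc3 were not called in any genotype.

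**Figure D1:**
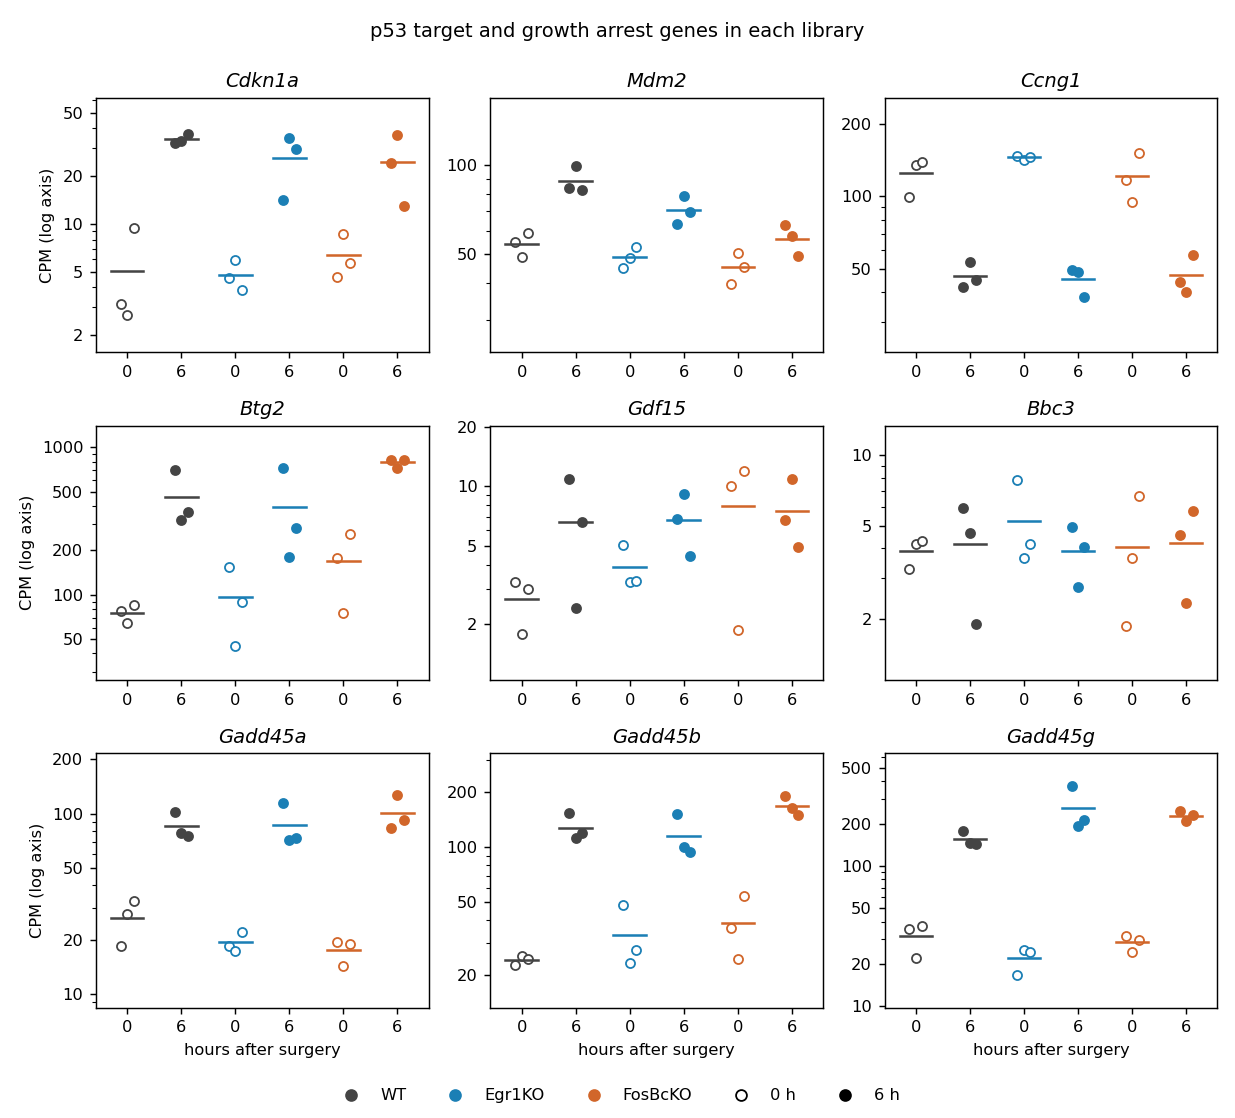
CPM of the 9 genes on log axes in each of the 18 libraries, with open circles for 0 h and filled circles for 6 h after surgery, coloured by genotype, and a bar at the mean of each group of 3. All 9 libraries at 6 h lie above all 9 at 0 h for Cdkn1a and the Gadd45 genes, and below them for Ccng1, while Gdf15 and Bbc3 overlap.

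Cdkn1a encodes p21, the inhibitor of cyclin-dependent kinases through which p53 halts the cell cycle. In WT the libraries held 3.16, 2.67 and 9.44 CPM at 0 h and 32.2, 33.5 and 36.6 CPM at 6 h. Egr1KO libraries held 4.57, 5.95 and 3.85 CPM at 0 h and 14.15, 34.9 and 29.6 CPM at 6 h. FosBcKO libraries held 4.64, 8.71 and 5.72 CPM at 0 h and 24.2, 36.55 and 12.98 CPM at 6 h. The 0 h and 6 h libraries did not overlap in any genotype, and the knockout groups at 6 h were spread more widely than WT. By the edgeR quasi-likelihood F-test the log2 fold change was 2.65 ± 0.44 (SE, FDR = 0.00528) in WT, a 6.26-fold rise. It was 2.50 ± 0.35 (SE, FDR = 0.0043) in Egr1KO and 1.98 ± 0.41 (SE, FDR = 0.0124) in FosBcKO by the same edgeR test. The FosBcKO call was lost when FosBcKO replicate 3 at 0 h was left out (log2 fold change 1.89, FDR = 0.0552).

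The lowest Cdkn1a values at 6 h, 14.15 and 12.98 CPM, belonged to Egr1KO replicate 1 and FosBcKO replicate 3. These were also the 6 h libraries with the highest Pax6, at 592 and 609 CPM against 213 to 415 CPM in the others, and the highest Prox1, at 713 and 674 CPM against 223 to 467 CPM. The third lens epithelium marker matched, Foxe3, followed this order only in part. It was at 175 CPM in Egr1KO replicate 1 and 196 CPM in FosBcKO replicate 3, against 75.05 to 189 CPM in the others, and FosBcKO replicate 2, with 189 CPM, was among the highest in Cdkn1a. All 3 encode transcription factors of lens cells. The match of Pax6 and Prox1 was noticed after the values were seen, and its part in the Cdkn1a values was not tested. Without Egr1KO replicate 1 at 6 h the Egr1KO log2 fold change of Cdkn1a was 2.76 ± 0.25 (SE, edgeR FDR = 7.71e-05), and without FosBcKO replicate 3 at 6 h that of FosBcKO was 2.22 ± 0.33 (SE, edgeR FDR = 0.000975). Leaving out the lowest 6 h library of a group raises the fold change by construction, so these values say nothing about the match. Leaving out any other library gave edgeR FDR = 0.00548 to 0.0358 in Egr1KO and 0.0272 to 0.0552 in FosBcKO.

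Mdm2 encodes the ubiquitin ligase that holds p53 levels down and is itself a p53 target. WT libraries held 54.95, 48.9 and 58.9 CPM at 0 h and 83.8, 99.7 and 82.8 CPM at 6 h. Egr1KO libraries held 45.1, 48.7 and 53.2 CPM at 0 h and 63.55, 79.1 and 69.7 CPM at 6 h. FosBcKO libraries held 39.7, 50.5 and 45.3 CPM at 0 h and 62.7, 57.6 and 49.3 CPM at 6 h. The times did not overlap in WT and Egr1KO and overlapped in FosBcKO. Mdm2 was 1.53-fold higher at 6 h in WT (log2 fold change 0.61 ± 0.16 SE, edgeR quasi-likelihood F-test FDR = 0.0254) and 1.5-fold higher in Egr1KO (0.58 ± 0.14 SE, FDR = 0.0253), both within the FDR limit and under the 2-fold minimum. In FosBcKO it was 0.33 ± 0.16 (SE, edgeR FDR = 0.172).

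Ccng1 encodes cyclin G1, a p53 target that takes part in the feedback on Mdm2 and p53 by way of a phosphatase, and it was the member that fell. In WT it went from 99.6, 135.5 and 139 CPM at 0 h to 41.9, 53.1 and 44.7 CPM at 6 h. Egr1KO libraries held 147, 142 and 146 CPM at 0 h and 49.2, 48.3 and 38.2 CPM at 6 h. FosBcKO libraries held 117.4, 95.0 and 151 CPM at 0 h and 44.2, 39.8 and 57.0 CPM at 6 h. The highest of the 9 libraries at 6 h, 57.0 CPM, lay below the lowest at 0 h, 95.0 CPM. The log2 fold change was -1.52 ± 0.19 (SE, edgeR quasi-likelihood F-test FDR = 0.00211) in WT, which is 2.88-fold lower. It was -1.63 ± 0.14 (SE, edgeR FDR = 0.0008) in Egr1KO and -1.38 ± 0.21 (SE, edgeR FDR = 0.00383) in FosBcKO, and this call held under all 15 alternatives tried in each genotype.

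Btg2 encodes an antiproliferative cofactor of mRNA deadenylation that p53 and growth factor signals both induce. WT libraries held 77.3, 64.5 and 85.1 CPM at 0 h and 702, 321 and 367 CPM at 6 h. Egr1KO libraries held 155, 45.0 and 89.4 CPM at 0 h and 725, 180.4 and 284 CPM at 6 h. FosBcKO libraries held 177.5, 75.2 and 257 CPM at 0 h and 823, 730.4 and 827 CPM at 6 h. The times did not overlap within a genotype, yet FosBcKO replicate 3 at 0 h stood above Egr1KO replicate 2 at 6 h. In WT the rise was 5.71-fold (log2 fold change 2.51 ± 0.32 SE, edgeR quasi-likelihood F-test FDR = 0.00211). In FosBcKO the log2 fold change was 2.21 ± 0.42 (SE, edgeR FDR = 0.0136), and the call was lost without FosBcKO replicate 1 at 6 h (FDR = 0.101). In Egr1KO it was 2.12 ± 0.62 (SE, edgeR FDR = 0.0473), with the highest FDR of the called changes. This Egr1KO call was lost when any single Egr1KO library was left out (FDR = 0.0547 to 0.142), and the log2 fold change without replicate 1 at 6 h was 1.28.

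The Gadd45 genes encode small stress proteins that bind p21, PCNA and cyclin-dependent kinase 1 and activate the MTK1 kinase upstream of p38 and JNK. Gadd45a is a direct p53 target, while Gadd45b and Gadd45g are induced mainly by cytokines such as TGF-beta and by NF-kappaB and other stress signals. For Gadd45a, WT libraries held 18.5, 27.9 and 33.0 CPM at 0 h and 102, 78.2 and 75.2 CPM at 6 h. Egr1KO libraries held 18.5, 17.4 and 22.2 CPM at 0 h and 115, 71.7 and 73.7 CPM at 6 h. FosBcKO libraries held 19.5, 14.3 and 18.9 CPM at 0 h and 83.5, 127 and 92.1 CPM at 6 h. The 2 highest 0 h libraries were WT, and those of WT and the knockouts overlapped at both times. The log2 fold change of Gadd45a was 1.58 ± 0.24 (SE, edgeR quasi-likelihood F-test FDR = 0.00356) in WT, 2.23 ± 0.25 (SE, FDR = 0.00202) in Egr1KO and 2.53 ± 0.23 (SE, FDR = 0.00029) in FosBcKO.

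For Gadd45b, WT libraries held 22.7, 25.4 and 24.5 CPM at 0 h and 153, 112 and 119 CPM at 6 h. Egr1KO libraries held 48.6, 23.4 and 27.5 CPM at 0 h and 151, 99.9 and 94.3 CPM at 6 h. FosBcKO libraries held 36.4, 24.6 and 54.5 CPM at 0 h and 191, 163 and 149.9 CPM at 6 h. The WT libraries at 0 h lay close together, while 2 Egr1KO and 2 FosBcKO libraries at 0 h stood above all of them. The log2 fold change of Gadd45b was 2.29 ± 0.18 (SE, edgeR quasi-likelihood F-test FDR = 0.000791) in WT, 1.86 ± 0.32 (SE, FDR = 0.00948) in Egr1KO and 2.11 ± 0.28 (SE, FDR = 0.00352) in FosBcKO. The Egr1KO call was lost without Egr1KO replicate 3 at 0 h (FDR = 0.055).

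For Gadd45g, WT libraries held 35.6, 21.96 and 37.5 CPM at 0 h and 177, 145 and 142 CPM at 6 h. Egr1KO libraries held 16.6, 25.25 and 24.1 CPM at 0 h and 373, 193 and 213.5 CPM at 6 h. FosBcKO libraries held 31.4, 24.4 and 29.7 CPM at 0 h and 245, 208 and 232 CPM at 6 h. All 6 knockout libraries at 6 h stood above all 3 WT libraries at 6 h. Gadd45g had the largest log2 fold change of the members in both knockouts, 3.64 ± 0.33 (SE, edgeR quasi-likelihood F-test FDR = 0.00102) in Egr1KO, a 12.4-fold rise, and 3.00 ± 0.16 (SE, FDR = 5.37e-06) in FosBcKO. In WT it was 2.19 ± 0.22 (SE, edgeR FDR = 0.00127), a 4.56-fold rise.

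Summed over the 3 Gadd45 genes, the level was 82.4 ± 11.0 CPM (SD, n = 3) in WT, 74.5 ± 8.86 in Egr1KO and 84.6 ± 20.1 in FosBcKO at 0 h. At 6 h the sums were 368 ± 55.3, 462 ± 154 and 497 ± 22.6 CPM in the same order. Gadd45g made up 42.2% of the family's summed CPM in WT at 6 h, with 41.0% to 43.3% in the 3 libraries, and 55.8% in Egr1KO at 6 h, with 53% to 58.3%. In FosBcKO at 6 h its share was 45.9%, with 41.8% to 49.0%. The Egr1KO libraries at 6 h thus did not overlap with those of WT or FosBcKO in this share, while at 0 h the mean shares of Gadd45g were 38.3%, 30.2% and 34.4% in WT, Egr1KO and FosBcKO and their libraries overlapped. These shares were examined after the values were seen and were not tested. They depend on gene length, so only the same gene was compared between groups.

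**Figure D2:**
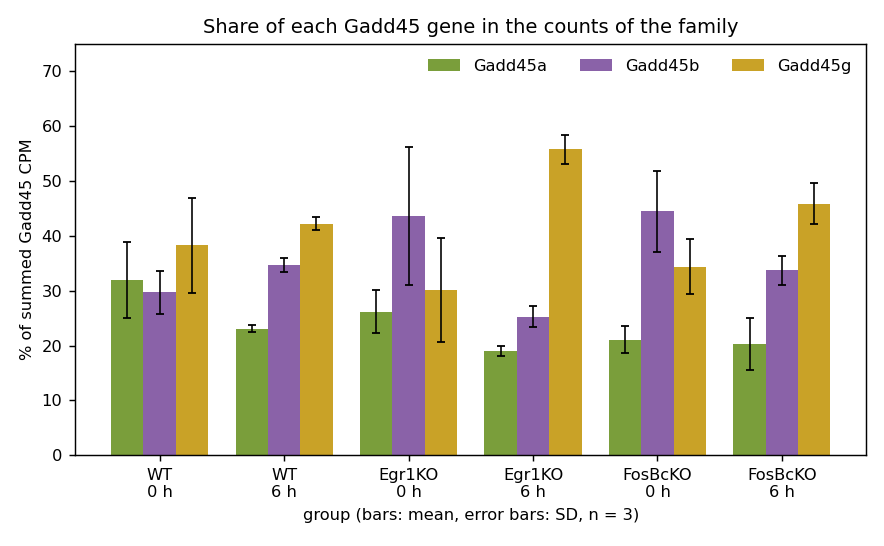
Share of Gadd45a, Gadd45b and Gadd45g in the summed CPM of the 3 genes, in percent, as the mean and SD of 3 libraries per group. The Gadd45g share is 55.8% in Egr1KO at 6 h and 42.2% in WT at 6 h, and shares are not corrected for gene length.

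Gdf15 encodes a secreted stress cytokine of the TGF-beta family, and Bbc3 encodes PUMA, a BH3-only protein that starts apoptosis. Both were low, with 18 to 126 counts per library for Gdf15 and 20 to 96 for Bbc3. Gdf15 in WT stood at 3.26, 1.78 and 3.02 CPM at 0 h and at 10.8, 2.42 and 6.58 CPM at 6 h. Egr1KO libraries held 5.06, 3.26 and 3.33 CPM at 0 h and 6.83, 9.08 and 4.43 CPM at 6 h. FosBcKO libraries held 10.1, 1.87 and 11.9 CPM at 0 h and 6.78, 10.9 and 4.90 CPM at 6 h. The times overlapped in every genotype, and libraries of a group lay far apart, with 113, 18 and 123 counts in FosBcKO at 0 h. The log2 fold change of Gdf15 was 1.19 ± 0.55 (SE, edgeR quasi-likelihood F-test FDR = 0.137) in WT, 0.84 ± 0.39 (SE, FDR = 0.148) in Egr1KO and -0.08 ± 0.62 (SE, FDR = 0.941) in FosBcKO. Without WT replicate 2 at 6 h, the lowest of its group, Gdf15 was called in WT (log2 fold change 1.57, FDR = 0.0416). Leaving out the lowest 6 h library raises the fold change by construction.

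Bbc3 stood at 3.26 to 4.28 CPM at 0 h and 1.91 to 5.94 CPM at 6 h in WT. Its range was 3.65 to 7.83 CPM and 2.74 to 4.95 CPM in Egr1KO, and 1.87 to 6.69 CPM and 2.33 to 5.76 CPM in FosBcKO. No change in Bbc3 was called, with log2 fold changes of 0.01 ± 0.48 (SE, edgeR quasi-likelihood F-test FDR = 0.995) in WT, -0.35 ± 0.46 (SE, FDR = 0.6) in Egr1KO and 0.02 ± 0.54 (SE, FDR = 0.98) in FosBcKO.

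**Figure D3:**
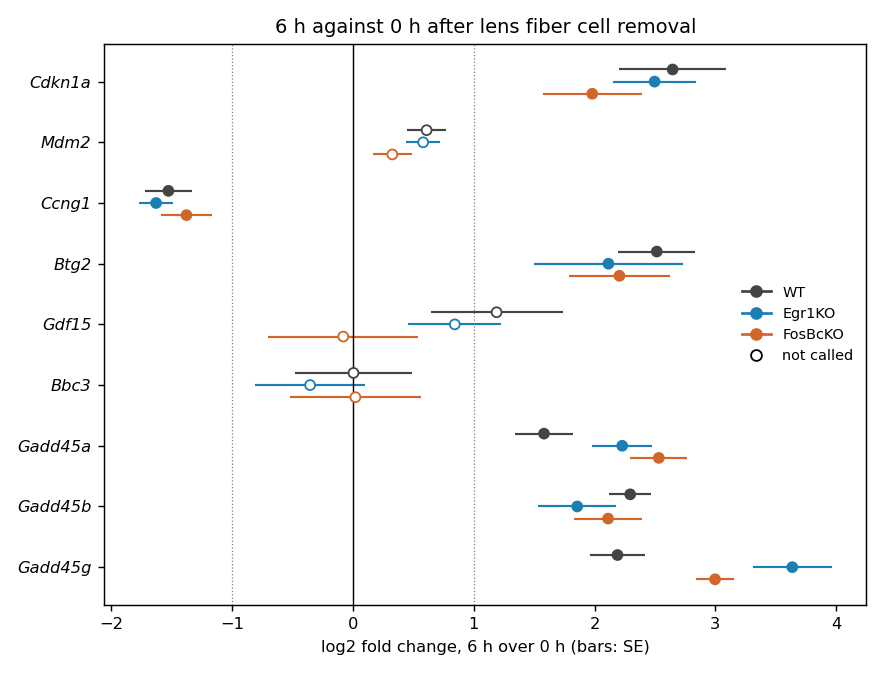
Log2 fold change of 6 h over 0 h for each gene in WT, Egr1KO and FosBcKO, with SE bars, filled circles where the change was called and dotted lines at 2-fold. Ccng1 lies at -1.38 to -1.63, Gadd45g reaches 3.64 in Egr1KO, and Mdm2, Gdf15 and Bbc3 have open circles in each genotype.

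Ordered by group mean, all 3 groups at 6 h stood above all 3 groups at 0 h for Cdkn1a, Btg2 and each Gadd45 gene, and below them for Ccng1. The step between the lowest 6 h group and the highest 0 h group was free of overlap for Cdkn1a, Ccng1 and the Gadd45 genes and not for Btg2. Mdm2 at 6 h had the order WT at 88.8 ± 9.47 CPM (SD, n = 3), Egr1KO at 70.8 ± 7.83 and FosBcKO at 56.5 ± 6.73, with no overlap between neighbours, though WT and Egr1KO overlapped after TMM scaling (72.4 to 98.7 and 70.8 to 79.8 CPM), and FosBcKO at 6 h overlapped with WT at 0 h, at 54.2 ± 5.03. Btg2 at 6 h was highest in FosBcKO, at 794 ± 54.9 CPM, clear of WT at 463 ± 208 and Egr1KO at 396 ± 289, and after TMM scaling it overlapped with Egr1KO. For Gdf15 and Bbc3 the groups of the 2 times were mixed in the order, and of their neighbouring groups Egr1KO and WT at 0 h alone were apart, for Gdf15, and these overlapped after TMM scaling.

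To see which genes behaved most like Cdkn1a, the centred log2 CPM of each of 17468 genes was compared with it over the 18 libraries, and likeness was measured by the root mean square difference, which is smaller for more alike patterns. Fam160a1 (ENSMUSG00000051000) was nearest at 0.444, followed by Stk40 (ENSMUSG00000042608) at 0.448 and Ippk (ENSMUSG00000021385) at 0.457. Among the members, Cdkn1a was nearest to Gadd45a, at 0.671, and the nearest pair was Btg2 and Gadd45b, at 0.443. Gadd45a was nearest to Gadd45b, at 0.461, and Gadd45g to Gadd45a, at 0.566. The 18 libraries share the contrast of 6 h with 0 h, which any gene of similar change and spread follows.

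To ask whether the loss of either factor moved these genes, Egr1KO and FosBcKO were set against WT separately at 0 h and 6 h by the edgeR exact test. None of the 9 genes was called in any of the 4 comparisons, nor by the quasi-likelihood F-test or DESeq2. In Egr1KO at 0 h, 0.41% of 14373 genes tested were called, and 0 of the 9 had an unadjusted p under 0.05, as did 6.4% of all genes. At 6 h, 0.736% of 15618 genes were called in Egr1KO, and 1 of 9 had such a p, against 9.67% of all genes. In FosBcKO at 0 h, 0.295% of 14556 genes were called, and 4 of 9 had such a p, against 5.62%. At 6 h, 5.41% of 16155 genes were called in FosBcKO, and 4 of 9 had such a p, against 16.5%. The comparisons at a given time share their 3 WT libraries, so a high or low WT library enters both knockouts. Markers of other cells also differed between the groups at 6 h. The leukocyte markers summed to 41.0 to 46.6 CPM in FosBcKO, 21.7 to 40.5 CPM in Egr1KO and 16.0 to 22.8 CPM in WT. Before TMM scaling FosBcKO did not overlap with the others, though it lay close to Egr1KO. Among these markers Cd68 went the other way, with means of 3.85, 3.78 and 6.07 CPM in the same order. Means of Ptprc, Lyz2, Adgre1, Csf1r and Itgam followed the order of the sums. The pigment cell markers summed to medians of 209, 174 and 82.4 CPM in FosBcKO, Egr1KO and WT, with overlap. The endothelial markers summed to 1.98 to 7.90, 3.27 to 14.4 and 7.56 to 15.8 CPM in that order, also with overlap. For the red blood cell markers the sums were 87.8 to 202, 116 to 252 and 57.5 to 166 CPM in the same order, with overlap. The corneal keratins summed to 0.753 to 6.04 CPM in Egr1KO. They spanned 0.518 to 299 CPM in FosBcKO and 2.48 to 190 CPM in WT, so the groups overlapped. The part of these markers in the differences at 6 h that follow was not tested.

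**Figure D4:**
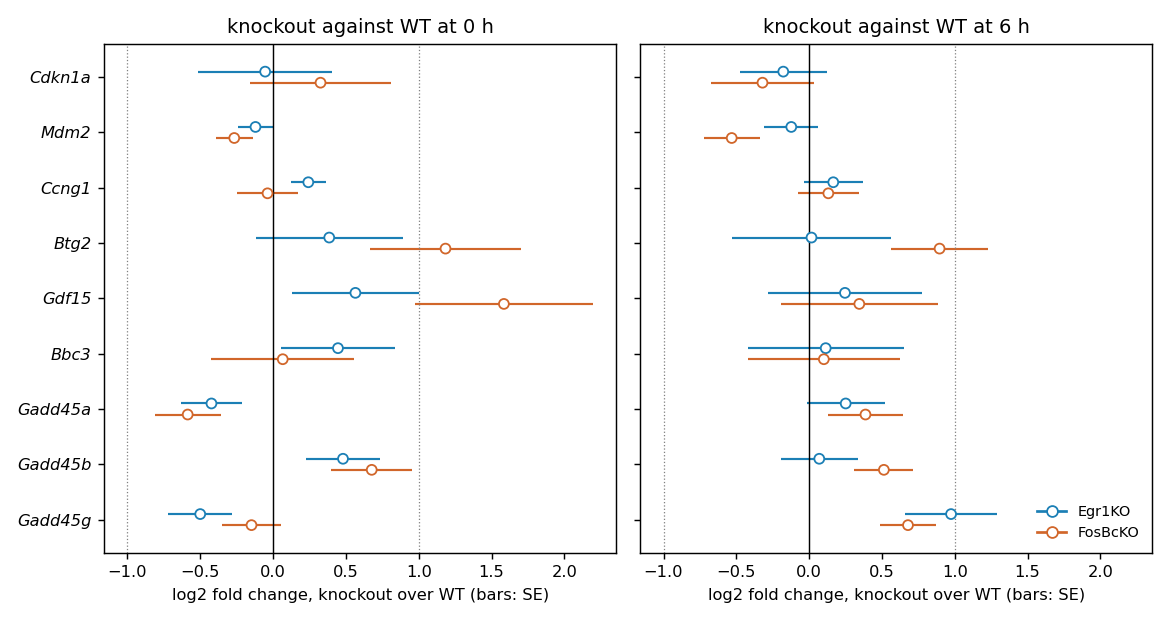
Log2 fold change of Egr1KO and FosBcKO over WT at 0 h and at 6 h for each gene, with SE bars and dotted lines at 2-fold. No change was called, so every circle is open, and the largest are Gdf15 (1.59) and Btg2 (1.18) in FosBcKO at 0 h.

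At 6 h Gadd45g was 1.97-fold higher in Egr1KO than in WT (log2 fold change 0.97 ± 0.31 SE, edgeR exact test FDR = 0.201) and 1.60-fold higher in FosBcKO (0.68 ± 0.19 SE, FDR = 0.0648). The knockout and WT libraries did not overlap in either comparison, and neither difference passed the test. Egr1KO replicate 1, with 373 CPM, weighed on the first. Without it the log2 fold change was 0.59 ± 0.24 (SE, edgeR exact test FDR = 0.482), and without Egr1KO replicate 2, the lowest of its group, it was 1.19 ± 0.31 (SE, FDR = 0.0144) and was called. Leaving out the highest or the lowest knockout library lowers or raises the fold change by construction. At 0 h Gadd45g stood lower in Egr1KO than in WT, with overlap, at a log2 fold change of -0.50 ± 0.22 (SE, edgeR exact test FDR = 0.785).

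Mdm2 at 6 h was 1.45-fold lower in FosBcKO than in WT (log2 fold change -0.53 ± 0.19 SE, edgeR exact test FDR = 0.222) and differed less in Egr1KO (-0.12 ± 0.19 SE, FDR = 0.946). Its libraries did not overlap with those of WT in FosBcKO, before or after TMM scaling. With all 18 libraries in 1 fit the FosBcKO difference reached FDR = 0.0361, still under the 2-fold minimum. Btg2 at 6 h was 1.86-fold higher in FosBcKO (log2 fold change 0.90 ± 0.33 SE, edgeR exact test FDR = 0.108), without overlap, and was called when WT replicate 1, the highest WT library, was left out (1.35 ± 0.29 SE, FDR = 0.00153). Leaving out the WT library nearest to FosBcKO raises the difference by construction. Gadd45b at 6 h had a log2 fold change of 0.51 ± 0.20 (SE, edgeR exact test FDR = 0.265) in FosBcKO, with overlap. Cdkn1a at 6 h had log2 fold changes of -0.18 ± 0.30 (SE, edgeR exact test FDR = 0.944) in Egr1KO and -0.32 ± 0.36 (SE, FDR = 0.8) in FosBcKO.

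At 0 h the FosBcKO libraries disagreed among themselves. Btg2 was 2.27-fold higher in FosBcKO than in WT (log2 fold change 1.18 ± 0.52 SE, edgeR exact test FDR = 0.72) and Gdf15 3.00-fold higher (1.59 ± 0.61 SE, FDR = 0.641), with overlap in both. Replicates 1 and 3 carried these differences, while replicate 2 lay within the WT range for both genes. Without replicate 2 both genes were called, Btg2 at 1.55 ± 0.19 (SE, edgeR exact test FDR = 1.01e-08) and Gdf15 at 2.06 ± 0.38 (SE, FDR = 0.00141). Leaving out the library nearest to WT raises the difference and narrows the spread by construction, so these values are no evidence of a genotype difference. Gadd45b had a log2 fold change of 0.68 ± 0.28 (SE, edgeR exact test FDR = 0.783) and Gadd45a of -0.59 ± 0.23 (SE, FDR = 0.827), also with overlap.

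The 3 libraries at 0 h with the highest Btg2, Gadd45b and Gdf15 were the same for all 3 genes: FosBcKO replicates 1 and 3 and Egr1KO replicate 1. They were also the 3 with the highest Egr1, at 260 CPM in FosBcKO replicate 1, 565 CPM in FosBcKO replicate 3 and 285 CPM in Egr1KO replicate 1, against at most 171 CPM in the other 6. Fosb, the other immediate early gene examined, did not follow, with 4.55 CPM in FosBcKO replicate 1, the lowest of the 9, 18.1 CPM in FosBcKO replicate 3 and 5.14 CPM in Egr1KO replicate 1, while WT replicate 1 was highest at 26.3 CPM. Gadd45a and Cdkn1a did not follow this order, and the highest 0 h library for both was WT replicate 3. Mdm2 was lowest in FosBcKO replicate 1, at 39.7 CPM, and next lowest in Egr1KO replicate 1, at 45.1 CPM. Gadd45g was lowest in Egr1KO replicate 1, at 16.6 CPM. Bbc3 and Ccng1 were highest in Egr1KO replicate 1 and FosBcKO replicate 3. FosBcKO replicate 1 held 1.87 CPM of Bbc3, the lowest of the 9, and 117.4 CPM of Ccng1. The match of Btg2, Gadd45b, Gdf15 and Egr1 was noticed after the values were seen, and its part in the 0 h differences was not tested.

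**Figure D5:**
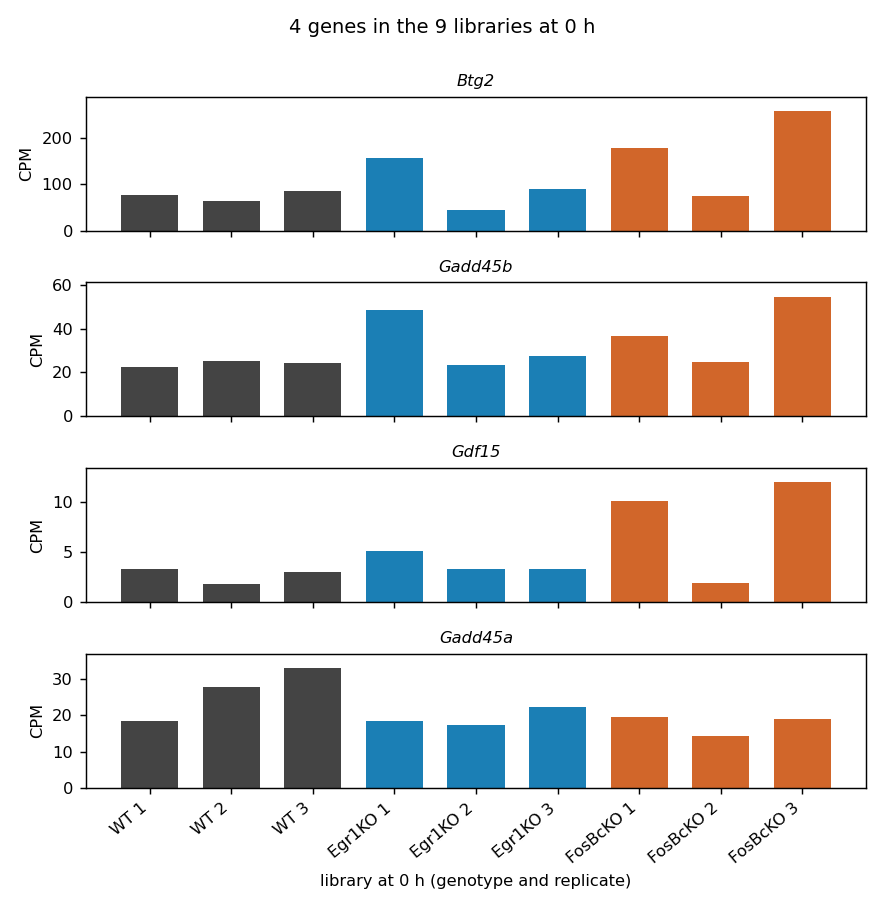
CPM of Btg2, Gadd45b, Gdf15 and Gadd45a in the 9 libraries at 0 h, as bars from 0, coloured by genotype. FosBcKO 1, FosBcKO 3 and Egr1KO 1 are the 3 highest for the first 3 genes, while Gadd45a is highest in WT 3, at 33.0 CPM. Cdkn1a, Mdm2, Ccng1, Bbc3 and Gadd45g are not shown.

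Interaction terms over all 18 libraries tested the injury response of Egr1KO and of FosBcKO against that of WT. None of the 9 genes was called by edgeR or by DESeq2. Of all 17469 genes tested by edgeR, 0% were called for Egr1KO and 0% for FosBcKO, and DESeq2 called 0 and 28 genes. An unadjusted p under 0.05 was found for 1 of 9 genes and 1141 of all genes (6.53%) with Egr1KO, and for 2 of 9 and 1171 of all genes (6.7%) with FosBcKO. Gadd45g rose more in Egr1KO than in WT by 1.42 ± 0.35 on the log2 scale (SE, edgeR quasi-likelihood F-test unadjusted p = 0.000817, FDR = 0.593), a difference that did not pass. The FosBcKO differences were 0.89 ± 0.37 (SE, edgeR FDR = 0.697) for Gadd45a and 0.75 ± 0.35 (SE, edgeR FDR = 0.737) for Gadd45g, which did not pass either. For Cdkn1a the differences were -0.17 ± 0.63 (SE, edgeR FDR = 0.97) in Egr1KO and -0.72 ± 0.63 (SE, edgeR FDR = 0.862) in FosBcKO.

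The other genes of the pathway were taken from a list of 36 p53 regulators, p53 targets, CDK inhibitors and BTG family genes. Only 17 of them, without the p53 gene Trp53 itself, could be matched to an ID, through tables of the study that are shortened and sorted by significance, so the counts are not read against all genes. In WT at 6 h 4 of the 17 were called higher and 1 lower, in Egr1KO 5 and 1, and in FosBcKO 2 and 1. In WT the largest rise was that of Plk2, a polo-like kinase of the stress response, from 28.8 to 326 CPM (log2 fold change 3.42 ± 0.42 SE, edgeR quasi-likelihood F-test FDR = 0.00218). Its relative Plk3 went from 2.81 to 13.9 CPM (2.21 ± 0.54 SE, edgeR FDR = 0.0203). Both kinases were also called higher in Egr1KO and in FosBcKO.

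Sesn2, a sestrin that restrains mTORC1 under stress, rose from 3.08 to 12.3 CPM in WT (log2 fold change 1.88 ± 0.41 SE, edgeR quasi-likelihood F-test FDR = 0.0133). In Egr1KO it was called too (2.92 ± 0.71 SE, edgeR FDR = 0.0269), and in FosBcKO it was not (1.23 ± 0.44 SE, edgeR FDR = 0.0667). Tigar, a phosphatase that slows glycolysis, rose from 5.75 to 13.4 CPM in WT (1.11 ± 0.24 SE, edgeR FDR = 0.0124). It was not called in Egr1KO, with 4.21 and 6.15 CPM (0.58 ± 0.56 SE, edgeR FDR = 0.478), or in FosBcKO, with 6.24 and 5.85 CPM (-0.11 ± 0.44 SE, edgeR FDR = 0.872). Tigar at 6 h stood lower in FosBcKO than in WT, without overlap (-1.10 ± 0.33 SE, edgeR exact test FDR = 0.057), and its interaction was not called (edgeR FDR = 0.746). Trp53inp1, a p53 target that promotes p53 activity, fell from 28.6 to 14.2 CPM in WT (-1.11 ± 0.20 SE, edgeR FDR = 0.00687), and was not called in Egr1KO (-1.08 ± 0.38 SE, FDR = 0.0791) or FosBcKO (-0.55 ± 0.21 SE, FDR = 0.0823). Besides Ccng1, a second p53 target was thus called lower after injury in WT. The p53 target Sesn1 was also lower in WT within the FDR limit, but under the 2-fold minimum (-0.88 ± 0.16 SE, edgeR FDR = 0.007). Mdm4, the relative of Mdm2 that binds and inhibits p53, was at 92.4 CPM at 0 h and 87.8 CPM at 6 h (-0.19 ± 0.13 SE, edgeR FDR = 0.324) and was not called.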

How the data were processed

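RNA of pooled lens capsules was sequenced by the authors from stranded, ribodepleted, paired-end libraries, aligned with HISAT2 and counted per Ensembl gene with HTSeq in union mode. The tables deposited are unnormalized counts of read pairs. The study's methods name GRCm38 and the submitters' processing notes GRCm39, so no coordinates are given, and promoter and protein sequences were not analysed here. HTSeq's summary lines were left out. The deposited tables hold IDs only. Member symbols came with the list of IDs, and 7 of 9 were also paired with the same ID in the study's tables, with 0 contradicted. The members and the wider lists were chosen with earlier results of these data known. The genes named are all 9 members, the wider-list genes called in WT at 6 h, Mdm4 and the 3 nearest to Cdkn1a.

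CPM is a gene's count over the sum of gene counts in its library, times 1000000, and 0.5 was added before log2 for the likeness. Tests used edgeR 4.0.16 in R 4.3.3 with filterByExpr, TMM scaling and robust dispersions over the 6 libraries of each contrast: the quasi-likelihood F-test for 6 h against 0 h, which the study used for WT, and the exact test for knockout against WT. Interactions used all 18 libraries. By the quasi-likelihood F-test 2645 genes were called in WT here, more than the study reports for WT at these limits. The study deposited that WT analysis separately from its knockout comparisons, so the counts may come from different libraries. The cause of this difference was not tested. FDR is Benjamini-Hochberg over all genes tested, and the SE comes from the quasi-likelihood fit. The scripts were tested on simulated data. Alternatives were DESeq2 1.42.0, the other edgeR test, RLE size factors, other filters, one fit of all libraries, no robust option, no fold minimum, a replicate block, and leaving out each library.

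Deviations of same-numbered 0 h and 6 h libraries correlated at 0.108, 0.261 and 0.27 in WT. They correlated at 0.0252, 0.157 and 0.0356 in Egr1KO and at 0.186, 0.0869 and 0.203 in FosBcKO, so in the knockouts not every pair exceeded 0.1. These values do not settle whether same-numbered libraries came from the same mice. The tests given are unpaired, and the replicate block was an alternative. The block changed no member's call. Libraries held 9609295 to 13871592 pairs.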

Additional observations from a re-analysis of the deposited data

How the results depend on the processing

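The counts of members called at 6 h against 0 h, 6 in each genotype, were 6, 6 and 6 with the replicate block and 7, 7 and 6 with no fold minimum, which added Mdm2. Leaving out 1 library gave 6 to 7 for WT, 4 to 5 for Egr1KO and 5 to 6 for FosBcKO. For knockout against WT the count of 0 became 0 to 1 in Egr1KO at 6 h (Gadd45g, without Egr1KO replicate 2), 0 to 2 in FosBcKO at 0 h (Btg2 and Gdf15, without FosBcKO replicate 2) and 0 to 1 in FosBcKO at 6 h (Btg2, without WT replicate 1), and stayed 0 in Egr1KO at 0 h and for both interactions. Each library named here was the one of its group nearest to the other genotype, so leaving it out raises the difference by construction. With no filter on low counts the Egr1KO interaction gave 1 call, Gadd45g at 1.47 (FDR = 0.000162), and the cause was not tested. Over all genes that alternative gave 264 calls for this interaction and 404 for FosBcKO, against 0. With no filter Btg2 also lost its call in Egr1KO at 6 h against 0 h (FDR = 0.233).

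Over 1395 tests of a member under an alternative, no called change reversed, and 73 had the other sign where neither was called. With TMM-scaled libraries 53 of 54 group means moved by less than 1 SD, and Ccng1 in Egr1KO at 0 h moved from 145 to 149 CPM. The replicate block changed no call of a member. Between genotypes, 3 of 12 same-numbered pairs correlated above 0.1. These values do not settle whether same-numbered samples of different genotypes share more than a number. Gdf15 and Bbc3 had the lowest counts of the members, and the parts of depth and of the spread between pools in their errors were not separated. p-values measure the spread between pools of 5 capsules. Over all genes, the exact test called 59 and 115 genes in Egr1KO and 43 and 874 in FosBcKO against WT at 0 h and 6 h. In the same order these were 17, 0, 11 and 437 by the quasi-likelihood F-test, 10, 0, 14 and 86 with the replicate block, 2, 7, 6 and 289 with all libraries in 1 fit, and 41, 76, 24 and 712 with no filter. With no fold minimum, calls of 6 h against 0 h rose from 2645, 1746 and 2027 to 4048, 3089 and 3381 in WT, Egr1KO and FosBcKO.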

Other observations

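Some genes of the wider list that were not called in WT were called in a knockout, 3 p53 targets and 1 CDK inhibitor, and they are named here after their values were seen. Fas, a death receptor, rose from 9.54 to 35.9 CPM in Egr1KO (log2 fold change 1.96 ± 0.26 SE, edgeR quasi-likelihood F-test FDR = 0.00363), and was at 0.76 ± 0.29 (SE, FDR = 0.0887) in WT and 2.07 ± 0.65 (SE, FDR = 0.0641) in FosBcKO. Sesn1, a sestrin, fell from 93.1 to 37.8 CPM in Egr1KO (-1.23 ± 0.28 SE, edgeR FDR = 0.0202) and was at -0.88 ± 0.16 (SE, FDR = 0.007) in WT, under the fold minimum. Cdkn2c, the CDK inhibitor, fell from 15.6 to 5.91 CPM in FosBcKO (-1.39 ± 0.26 SE, edgeR FDR = 0.00823). These injury responses were not shown to differ between genotypes, since no interaction was called.

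Apaf1, the scaffold of the apoptosome, rose in Egr1KO from 8.39 to 28.9 CPM (log2 fold change 1.83 ± 0.35 SE, edgeR quasi-likelihood F-test FDR = 0.0113) and went from 12.6 to 27.0 CPM in WT (0.99 ± 0.22 SE, FDR = 0.0147), just under the fold minimum. In FosBcKO it was at 11.9 CPM at 0 h and 9.03 CPM at 6 h (-0.41 ± 0.30 SE, edgeR FDR = 0.35). At 6 h it was lower in FosBcKO than in WT (-1.48 ± 0.30 SE, edgeR exact test FDR = 0.000758), the only knockout difference called among the 17 genes. The test of the difference in response gave -1.46 ± 0.43 (SE, edgeR FDR = 0.441).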
